A study of Oryzias latipes with 4 samples.

Results

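Opsins are light-sensing receptors, and the phototransduction cascade is the set of proteins that carries their signal and switches it off. The genes described here are the 58 of 20898 named genes in medaka whose best-hit protein description names an opsin or another listed phototransduction component. The terms were opsin, arrestin-C, recoverin, guanylyl cyclase-activating protein, the transducin G(t) subunits, and the rod or cone cyclic GMP phosphodiesterase, and values of features that share a gene name were summed. They came from 93 of 93896 features of the expression table. Of the 58 genes, 33 encode receptors and 25 encode other components. Neither cGMP-gated nor S-arrestin, 2 further terms of the choice, matched any description, so channels and arrestins under other descriptions lie outside the set. The phosphodiesterase term matched the gamma and delta subunits, and the catalytic subunits, described in other words, lie outside it too.

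The samples were brain RNA of female medaka (Oryzias latipes), taken from a block with the hypothalamus, the pituitary and the ventral telencephalon. Medaka is a teleost whose reproduction follows day length. Fish in the LD group had been moved from short days to long days 16 h before collection, and fish in the SD group stayed under short days, where both groups had been kept. There were 2 libraries per group, called LD 1, LD 2, SD 1 and SD 2, and 6 fish per condition. The fish came from a dealer, with no strain, age or transgene given in the labels, and how 6 fish map to 2 libraries is not stated there either. The p-values therefore measure the spread between libraries, which may be technical.

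In rods and cones, a visual pigment activates transducin, which activates phosphodiesterase 6, and the drop in cyclic GMP closes cation channels. Rhodopsin kinases, arrestins, recoverin and guanylyl cyclase-activating proteins end the response and reset its sensitivity. Fish brains also express opsins outside the eye, among them opsin-5, melanopsins, vertebrate ancient opsin and the teleost multiple tissue (TMT) opsins, and in birds opsin-5 and vertebrate ancient opsin are studied as deep-brain photoreceptors of the seasonal response.

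Expression is given as FPKM, fragments per length of feature, scaled to the sequenced total. Of the 58 genes, 36 were above 0 in all 4 libraries, 15 in 1 to 3 of them, and 7 were listed at 0 in all 4. Among the 33 receptors the same counts were 22, 8 and 3, and among the 25 other components 14, 7 and 4. The genes at 0 throughout were kfh-b (blue-sensitive opsin), kfh-r and LOC101165800 (both red-sensitive opsins), LOC101159081 and LOC101168622 (phosphodiesterase 6 gamma-like) and LOC101159805 and LOC101172917 (guanylyl cyclase-activating proteins). The limit for testing, a 4-library mean of 1 FPKM or more, was reached by 19 of the 58, namely 10 receptors and 9 other components.

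As to the tissue and the libraries, all 9 hypothalamus markers, all 9 pituitary markers and all 6 markers of the ventral telencephalon and GABA neurons reached a mean of 1 FPKM. None of 15 photoreceptor or pineal markers did, while 7 of 42 other eye markers did. The worth of 1 fragment on 1500 bases was estimated at 0.0206 to 0.0303 FPKM, with SD 2 the deepest library at 1.47 times the depth of SD 1. Features above 0 numbered 39789 in SD 2 and 37506 to 37823 elsewhere. Of 17030 genes and features tested, 1 passed an adjusted p of 0.05, the pituitary hormone gene somatotropin (LOC101171460, 263 and 274 FPKM in LD, against 914 and 866 FPKM in SD, limma adjusted p = 0.0219). Without SD 1, LD 1 or LD 2 its adjusted p was 0.0591, 0.140 and 0.240. Summed pituitary markers were 3997 and 5496 FPKM in LD 1 and LD 2, against 6919 and 7250 FPKM in SD 1 and SD 2. Of the 9, 8 were below 0 on the log2 scale, with a median difference of -0.59. The largest part of the sum was prolactin-1, with 1825 and 3536 FPKM in LD, against 3900 and 3743 FPKM in SD. Log2 differences were small for pomc (-0.21) and fshb (-0.14), and prl was at 0.69. What part the pituitary marker difference has in the values below was not tested. In such bulk tissue fewer cells of a type and less RNA per cell cannot be told apart.

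No opsin or phototransduction gene passed the adjusted threshold when LD was compared with SD. The smallest adjusted p among the 19 tested genes was 0.782 and the largest 0.989 (limma on log2(FPKM + 1), two-sided, Benjamini-Hochberg over all 17030), and the background share of adjusted calls was 0.00587%. At an unadjusted p under 0.05 stood 2 of the 19, the TMT opsin tmtops1b and the phosphodiesterase 6 gamma-like gene LOC110014956, both with higher values in LD. The background share at that level was 6.34% in either direction, 2.55% higher in LD and 3.79% lower in LD. The count of 2 of 19 is within 1 gene of what the either-direction share gives for 19 genes. It is above what the share higher in LD gives, and LOC110014956 was tested through its LD values. The median log2 difference, LD minus SD, was -0.04 over the 19, with 9 above 0 and 10 below, and -0.01 over all 17030, with 7889 above 0 and 9141 below.

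**Figure D1:**
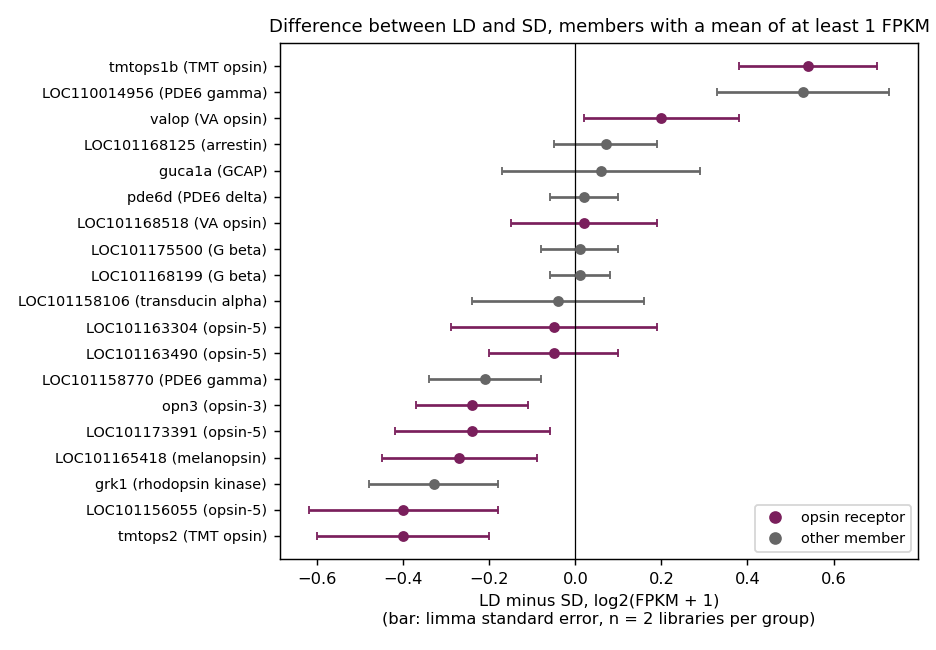
Log2 difference between LD and SD, LD minus SD on the log2(FPKM + 1) scale, for the 19 members with a mean of at least 1 FPKM, ordered by the difference. Points are estimates from 2 libraries per group and bars are limma standard errors; tmtops1b lies at 0.54 and tmtops2 at -0.40, and no gene passed the adjusted threshold.

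Among the receptors of the set, the opsin-5 group had the highest levels. Opsin-5, also called neuropsin, is a short-wavelength-sensitive opsin that in birds is found in hypothalamic neurons contacting the cerebrospinal fluid. All 8 genes described as opsin-5 or opsin-5-like were above 0 in at least 3 libraries, and 4 were tested. Only LOC101163304 and LOC101157504 are described as opsin-5, and the rest as opsin-5-like. They are called opsin-5 genes here by description alone. LOC101163304 (opsin-5, chromosome 1, positions 190534 to 195712 of the deposited table, of an unstated build) had 5.35 and 7.18 FPKM in LD 1 and LD 2, against 8.13 and 5.10 FPKM in SD 1 and SD 2. Its groups overlapped, with the highest and the lowest value both in SD, and the log2 difference was -0.05 ± 0.24 (SE).

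LOC101156055 (opsin-5-like, chromosome 24, positions 6238992 to 6243575) had 4.33 and 4.55 FPKM in LD, against 7.92 and 4.77 FPKM in SD. Both LD libraries were below both SD libraries, but LD 2 and SD 2 lay close together and SD 1 stood apart. Its log2 difference was -0.40 ± 0.22 (SE, limma adjusted p = 0.802), but it rested on SD 1: without SD 1 it was -0.08, and without SD 2 -0.71 (limma adjusted p = 0.965 and 0.46). LOC101163490 (opsin-5-like) had 2.91 and 3.80 FPKM in LD, against 3.55 and 3.42 FPKM in SD, overlapping, with a log2 difference of -0.05. LOC101173391 (opsin-5-like) had 1.61 and 2.03 FPKM in LD, against 2.59 and 2.08 FPKM in SD. Those groups did not overlap, by a small margin between LD 2 and SD 2, and the log2 difference was -0.24 ± 0.18 (SE). This gene lies within the span of LOC101173147, a gene on the same strand that was listed at 0 in all 4 libraries.

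The other 4 opsin-5 genes stayed under the limit for testing. LOC101167896 had 0.795 and 0.0565 FPKM in LD, against 1.69 and 0.857 FPKM in SD, so LD 2 was near 0 and SD 1 highest. LOC101174635 had 0.549 and 0.471 FPKM in LD, against 0.651 and 0.609 FPKM in SD, again with LD below SD. In neither did the groups overlap, whereas they did in LOC101157504, with 1.03 and 0.911 FPKM in LD, against 0.772 and 1.11 FPKM in SD. The lowest opsin-5 gene, LOC101167486, had 0.0509 and 0 FPKM in LD, against 0.0280 and 0.0190 FPKM in SD, about the worth of 1 or 2 fragments. Summed over the 8 genes, opsin-5 expression was 16.6 and 19.0 FPKM in LD, against 25.3 and 18.0 FPKM in SD. Only SD 1 was thus above both LD libraries, and SD 2 lay between them.

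Melanopsins are opsins that signal through Gq and phospholipase C rather than through transducin, and in mammals they make some retinal ganglion cells light-sensitive. All 5 melanopsin genes were above 0 in every library, and only LOC101165418 (melanopsin-A, chromosome 15, positions 12380670 to 12409312) was tested. It had 2.19 and 1.82 FPKM in LD, against 3.07 and 2.22 FPKM in SD. The groups did not overlap, though LD 1 and SD 2 were nearly equal, and the log2 difference was -0.27 ± 0.18 (SE, limma adjusted p = 0.825). It was -0.10 without SD 1 and -0.44 without SD 2.

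Of the rest, LOC101156918 (melanopsin-like) had 0.329 and 0.538 FPKM in LD, against 0.817 and 0.571 FPKM in SD, with LD below SD. LOC101173945 (melanopsin-A) had 0.618 and 1.15 FPKM in LD, against 1.17 and 0.480 FPKM in SD, and LOC101157094 (melanopsin-A-like) had 0.799 and 0.493 FPKM in LD, against 0.719 and 0.692 FPKM in SD. LOC101158465 (melanopsin-B) was lowest, with 0.303 and 0.230 FPKM in LD, against 0.233 and 0.381 FPKM in SD. In these 3 the groups overlapped.

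Vertebrate ancient opsin is found in the retina and brain of fishes, and medaka has a pair of genes described by that name in the set. The gene valop (vertebrate ancient long opsin, chromosome 15, positions 2208394 to 2241545) had 2.71 and 1.97 FPKM in LD, against 1.76 and 2.01 FPKM in SD. LOC101168518 (vertebrate ancient opsin, chromosome 17) had 2.36 and 2.25 FPKM in LD, against 2.65 and 1.91 FPKM in SD. Both overlapped between groups, with log2 differences of 0.20 ± 0.18 and 0.02 ± 0.17 (SE).

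The 4 TMT opsin genes, members of a family related to opsin-3 and first described in teleosts, had differences in both directions. Their best hits are described as pinopsin, pinopsin-like or vertebrate ancient opsin-like, while the gene names carry the TMT label. The gene tmtops1b (chromosome 20, positions 23474214 to 23515962) had 2.65 and 2.55 FPKM in LD 1 and LD 2, against 1.68 and 1.29 FPKM in SD 1 and SD 2. Both LD libraries were above both SD libraries, and the log2 difference was 0.54 ± 0.16 (SE, limma adjusted p = 0.782). Of its 5 features 3 were above 0, and each of these was higher in both LD libraries than in either SD library. Features of a single gene in the same libraries are not separate observations, and no share over all features was taken. The feature of 606 bases had 1.16 and 1.02 FPKM in LD, against 0.684 and 0.920 FPKM in SD, the feature of 327 bases 0.948 and 1.06 FPKM in LD, against 0.692 and 0 FPKM in SD, and the feature of 984 bases 0.547 and 0.466 FPKM in LD, against 0.300 and 0.371 FPKM in SD. In all the gene rested on about 37.5 and 34.2 fragments in LD, against 20.6 and 29.9 in SD. As a mean over its features weighted by length, its level of 0.390 FPKM was under the limit for testing.

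The gene tmtops2 (chromosome 21, positions 10455616 to 10515121) had 3.21 and 5.11 FPKM in LD, against 5.41 and 5.97 FPKM in SD. LD 1 was low, while LD 2 lay just under SD 1, and the log2 difference was -0.40 ± 0.20 (SE, limma adjusted p = 0.794). It was -0.13 without LD 1 and -0.67 without LD 2. Much of the gap between LD 1 and the rest came from the feature of 411 bases, with 0.0992 and 2.32 FPKM in LD, against 2.16 and 1.55 FPKM in SD. Another 2 of its 4 features lie across st6gal2, a gene on the opposite strand with 24.8 and 25.8 FPKM in LD, against 25.9 and 24.7 FPKM in SD. Whether the counting used strand is not stated in the labels, so the reads of these features are uncertain.

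Lower still were tmtops3a and tmtops3b, each measured by a single feature. The gene tmtops3a (chromosome 10, positions 11045851 to 11049303) had 0.359 and 0.363 FPKM in LD, against 1.09 and 0.664 FPKM in SD. The gene tmtops3b (chromosome 14, positions 8431781 to 8435078) had 0.481 and 0.189 FPKM in LD, against 1.20 and 0.829 FPKM in SD. In both genes LD was below SD without overlap, opposite to tmtops1b. They rested on about 6.0 and 6.0 fragments in LD for tmtops3a, against 16.5 and 14.8 in SD, and on 11.4 and 4.4 in LD for tmtops3b, against 25.7 and 26.2 in SD. In a fit with no limit on the mean (33045 genes and features) their log2 differences were -0.45 ± 0.16 and -0.60 ± 0.18 (SE), with a limma adjusted p of 0.864 for both. In that fit 5 of the 51 members above 0 had an unadjusted p under 0.05, against a background of 5.52%. The other 3 were tmtops1b, LOC110014956 and grk7.

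**Figure D2:**
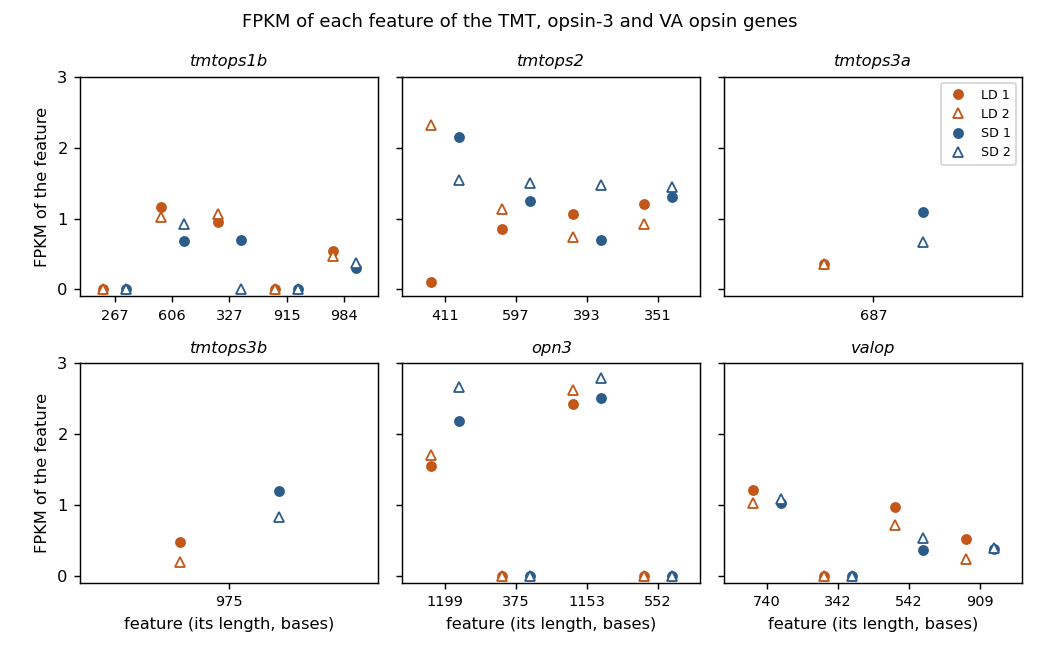
FPKM of every feature of the 4 TMT opsin genes, opn3 and valop, with each feature named by its length in bases along the x axis; LD libraries are drawn left of SD libraries. The 3 expressed features of tmtops1b are higher in both LD libraries, and the single features of tmtops3a and tmtops3b are lower in both.

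Opsin-3, or encephalopsin, was first found in the mouse brain. The medaka gene opn3 (chromosome 15, positions 3391379 to 3410989) had 3.98 and 4.33 FPKM in LD, against 4.69 and 5.46 FPKM in SD. LD was below SD without overlap, and the log2 difference was -0.24 ± 0.13 (SE, limma adjusted p = 0.799). Of its 2 features above 0, that of 1199 bases had 1.55 and 1.71 FPKM in LD, against 2.18 and 2.66 FPKM in SD, and that of 1153 bases overlapped between groups, with 2.42 and 2.62 FPKM in LD, against 2.51 and 2.80 FPKM in SD. The peropsin gene rrh, an opsin of the retinal pigment epithelium, had 0 and 0.117 FPKM in LD, against 0 and 0 FPKM in SD. LOC101157770, related to the pineal pigment parapinopsin, had 0.372 and 0 FPKM in LD, against 0.0810 and 0 FPKM in SD.

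The receptors held a number of genes whose groups did not overlap. Of the 30 receptors above 0 in some library, 10 were lower in both LD libraries and 3 were higher. The backgrounds were 16.7% lower and 13.4% higher over the 33045 genes and features above 0. Many of these may be at 0 in some libraries, where ties hinder separation. Over the 17030 tested, the shares were 20.9% lower and 16.4% higher, and no background was matched to the receptors. The 10 were all among the 22 receptors other than visual pigments, of which 1 was higher, and they hold 4 opsin-5 genes, 2 melanopsins, 3 TMT opsins and opn3. None of the 10 passed the adjusted threshold in either fit, and the summed expression of the 22 was 37.0 and 40.1 FPKM in LD, against 49.9 and 40.5 FPKM in SD. LD 2 and SD 2 were thus almost equal in the sum, and SD 1 was high.

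**Figure D3:**
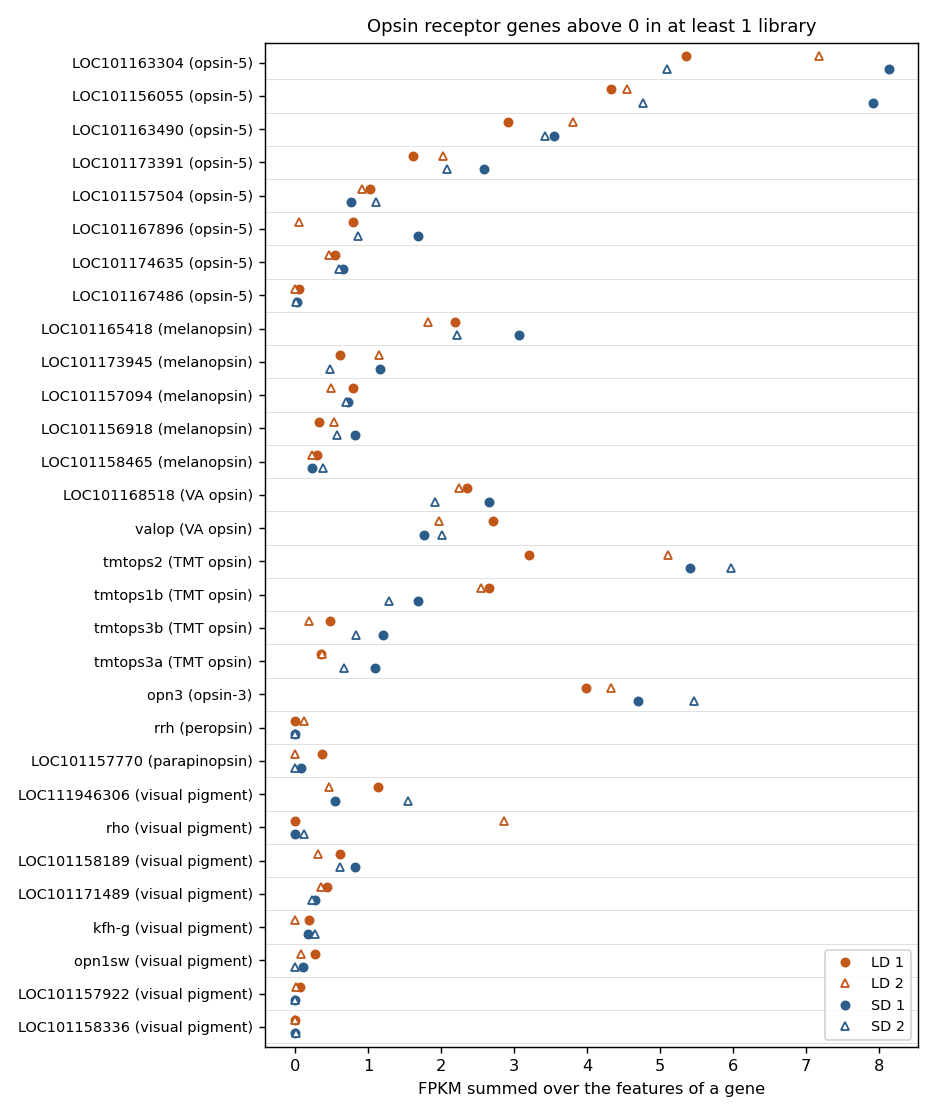
FPKM, summed over features, of the 30 opsin receptor genes above 0 in at least 1 library, grouped by family; LD points lie above SD points in each row, circles are replicate 1 and triangles replicate 2. The 2 opsin-5 genes at the top reach 8.13 and 7.92 FPKM in SD 1, and rho stands at 2.86 FPKM in LD 2 alone.

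To compare genes with each other, levels were taken as a mean over a gene's features weighted by length, since sums favour genes split into several features. In this order LOC101163304 came first with 6.44 ± 1.46 FPKM and LOC101156055 second with 5.39 ± 1.70 FPKM (SD, n = 4 libraries), and their ranges overlapped. The next were LOC101163490 at 2.17 ± 0.181, LOC101173391 at 2.08 ± 0.401, LOC101165418 at 1.68 ± 0.383, opn3 at 1.65 ± 0.231 and tmtops2 at 1.23 ± 0.305 FPKM (SD, n = 4). The range of LOC101156055 did not meet that of LOC101163490, and 27 of the 29 pairs of neighbours in the order did overlap. The second gap lay far down, between LOC101158465 at 0.287 FPKM and kfh-g at 0.126 FPKM. Even the highest receptor of the set was of modest abundance. Of the 15427 named genes with a summed mean of 1 FPKM or more, 42.5% lay below it by length-weighted level.

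Visual pigments are the opsins of rods and cones. The 11 genes counted here were grouped by description, which does not say in which cells each is used. Of them, 8 were at a mean under 0.4 FPKM. Of the 11, 3 were above 0 in all 4 libraries, 5 in some and 3 in none, and no gene reached the limit for testing. The rhodopsin gene rho (chromosome 7, positions 16841707 to 16861068) had 0 and 2.86 FPKM in LD, against 0 and 0.119 FPKM in SD. The value rested on LD 2, at about 70.5 fragments. Of the 32 genes of the visual cycle list, 10 were highest in LD 2. The same held for 2 of 29 photoreceptor phototransduction genes outside the terms and for 3 of 15 photoreceptor or pineal markers. No share over all genes was taken for this count. Given here are 3 of the 10, chosen after their values were seen because they, too, were several times higher in LD 2. They are not all such genes of the list. The retinol-binding protein rbp3 had 0.219 and 2.99 FPKM in LD, against 0.174 and 0.248 FPKM in SD. The retinaldehyde-binding protein rlbp1 had 0.120 and 0.862 FPKM in LD, against 0.0443 and 0.0452 FPKM in SD, and the stra6-like retinol receptor LOC101157279 had 2.86 and 9.51 FPKM in LD, against 1.46 and 2.59 FPKM in SD. Others of the list differed from this, and rpe65, the retinoid isomerase, had 2.85 and 1.73 FPKM in LD, against 2.11 and 1.25 FPKM in SD.

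The rhodopsin-like gene LOC111946306 had another pattern, with 1.13 and 0.465 FPKM in LD, against 0.542 and 1.55 FPKM in SD, so it was highest in SD 2 and LD 1. Its span overlaps that of LOC101171489 (rhodopsin) on the same strand of chromosome 7, so their reads cannot be surely told apart. LOC101171489 itself had 0.435 and 0.362 FPKM in LD, against 0.274 and 0.235 FPKM in SD, or at most 4.5 fragments. The summed photoreceptor or pineal markers were 4.67 and 2.05 FPKM in LD, against 2.50 and 5.20 FPKM in SD, which is also highest in SD 2 and LD 1. Most of that spread came from 2 of the 15, LOC101171355 and LOC101174207, without which the sums were 2.16 and 1.66 FPKM in LD, against 2.08 and 2.37 FPKM in SD. Of the 15 markers, 3 were at 0 in all 4 libraries, and asmt, of melatonin synthesis, had 0.981 and 0.672 FPKM in LD, against 0.908 and 0.634 FPKM in SD. Peripherin-2 (LOC101171355), of photoreceptor discs, had 1.14 and 0 FPKM in LD, against 0 and 1.16 FPKM in SD. AIPL1 (LOC101174207), a chaperone of phosphodiesterase 6, had 1.37 and 0.387 FPKM in LD, against 0.428 and 1.67 FPKM in SD. Other genes of these descriptions were lower. The peripherin-2 gene prph2 had at most 0.0588 FPKM, in SD 2. The peripherin-2-like gene LOC101163349 had 0.0629 and 0.211 FPKM in LD, against 0 and 0 FPKM in SD. The AIPL1 gene LOC101165071 had 0.0821 and 0.0706 FPKM in LD, against 0.302 and 0.0474 FPKM in SD. Of the beta-3 genes of the cyclic nucleotide-gated channel, LOC101156926 had 1.58 and 0.0642 FPKM in LD, against 0.386 and 1.25 FPKM in SD, and was chosen for its likeness. The other 2 differed from it, with 1.06 and 2.47 FPKM in LD, against 5.72 and 0.640 FPKM in SD, for LOC101162268, and 0.773 and 0.640 FPKM in LD, against 0.929 and 0.785 FPKM in SD, for LOC101156692. The summed 42 other eye markers, lens crystallins among them, were 17.4 and 18.9 FPKM in LD, against 16.4 and 19.1 FPKM in SD, and 11 of them were at 0. What part such cells have in the rhodopsin values was not tested.

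**Figure D4:**
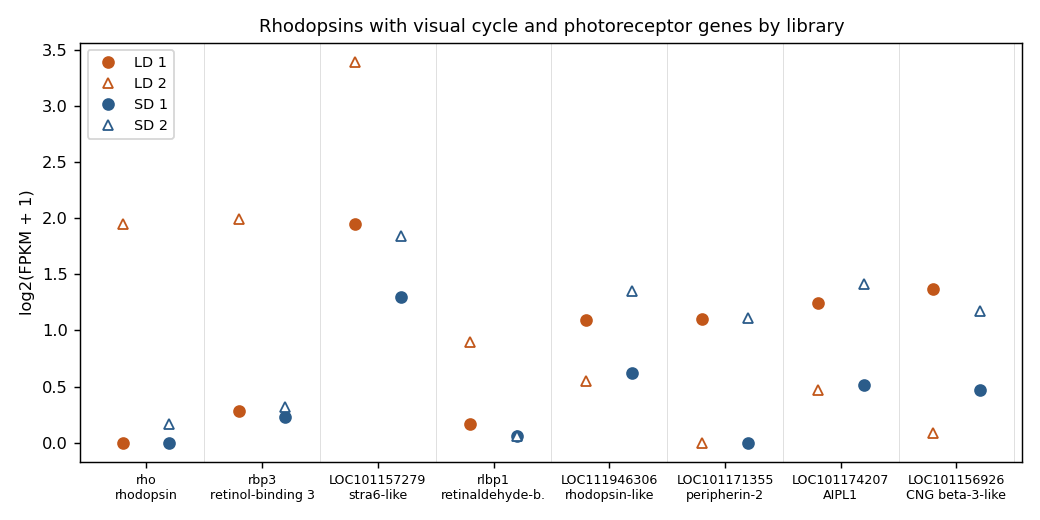
Expression as log2(FPKM + 1) of rho and LOC111946306 beside visual cycle and photoreceptor genes in each library, LD left of SD; the genes were chosen after their values were seen. The first 4 genes are highest in LD 2, at 2.86 FPKM for rho, and the last 4 are highest in LD 1 or SD 2.

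Of the cone opsins, LOC101158189 (blue-sensitive, chromosome 5, positions 26380171 to 26386436) had the highest level, with 0.621 and 0.315 FPKM in LD, against 0.821 and 0.619 FPKM in SD. It lies next to the blue- and red-sensitive genes that were at 0. Of these kfh-b, a single feature of 549 bases, overlaps it and both red-sensitive genes on the same strand. The assignment of reads among these genes is therefore uncertain. The violet-sensitive gene opn1sw had 0.275 and 0.0886 FPKM in LD, against 0.113 and 0 FPKM in SD. Of the 3 green-sensitive genes, which lie between 376735 and 426195 of chromosome 5, kfh-g had 0.195 and 0 FPKM in LD, against 0.171 and 0.272 FPKM in SD. LOC101157922 had 0.0636 and 0.0182 FPKM in LD, against 0 and 0 FPKM in SD, and LOC101158336 had 0.0188 FPKM in SD 2 and 0 elsewhere. The violet- and green-sensitive genes were thus at 0 in 1 to 3 libraries each, and the genes of a cluster did not share a level. In all, 14 of the 58 genes had another of the set within 100 kb, and the 58 lie on 21 chromosomes.

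The components downstream of the receptors fell into a few abundant genes and many near 0. The G protein beta subunits are shared by many receptors and were the most abundant. LOC101175500 (beta-2) had 150 and 133 FPKM in LD, against 148 and 133 FPKM in SD, above 98.2% of the 15427 named genes. LOC101168199 (beta-1-like) had 47.7 and 45.2 FPKM in LD, against 45.0 and 47.2 FPKM in SD. Both had log2 differences of 0.01, with SE of 0.09 and 0.07. The cone transducin beta subunit gnb3 was far lower, with 0.387 and 0.390 FPKM in LD, against 0.347 and 0.372 FPKM in SD. Its span overlaps pex5 on the opposite strand.

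The alpha subunit is the part of transducin that activates phosphodiesterase 6. LOC101158106 (G(t) alpha-2-like) had 1.05 and 0.967 FPKM in LD, against 1.23 and 0.920 FPKM in SD, with overlap and a log2 difference of -0.04 ± 0.20 (SE). LOC101158659 (G(t) alpha) was above 0 in LD 2 alone, at 0.180 FPKM.

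Phosphodiesterase 6 is held inactive by its gamma subunits. LOC110014956 (cone gamma-like, chromosome 1, positions 11070096 to 11071171) had 1.35 and 1.84 FPKM in LD, against 0.799 and 0.786 FPKM in SD. Both LD libraries were above both SD libraries, and the log2 difference was 0.53 ± 0.20 (SE, limma adjusted p = 0.783). Its SD mean of 0.792 FPKM was below the limit for testing, so it was tested through its LD values. LOC101158770 (cone gamma, chromosome 8) had lower values in LD, with 3.50 and 3.06 FPKM in LD, against 3.74 and 4.16 FPKM in SD and a log2 difference of -0.21 ± 0.13 (SE). The other 4 gamma genes had at most 0.440 FPKM, the value of pde6g in LD 2, and 2 of them were at 0. The delta subunit pde6d, a carrier of prenylated proteins in many tissues, had 23.6 and 21.8 FPKM in LD, against 22.6 and 22.0 FPKM in SD, and overlapped between groups.

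**Figure D5:**
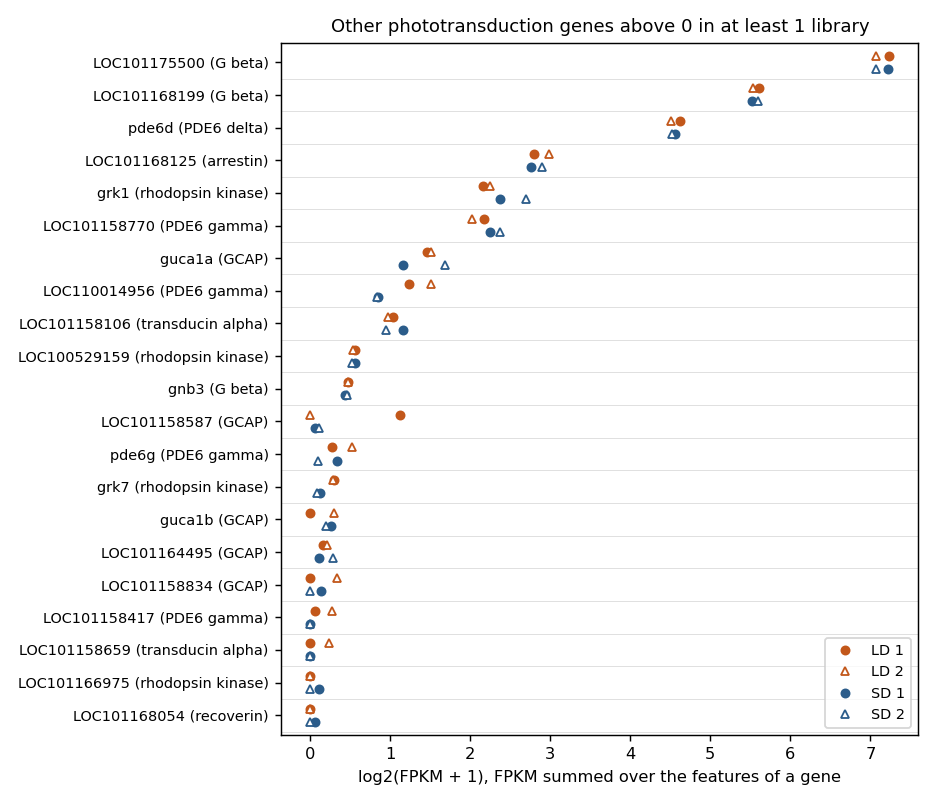
Expression as log2(FPKM + 1), summed over features, of the 21 components other than receptors that were above 0 in at least 1 library, with LD points above SD points in each row. The 2 G beta genes and pde6d reach 150, 47.7 and 23.6 FPKM in LD 1, and most of the others lie under 1 FPKM.

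Rhodopsin kinases phosphorylate the active pigment, and arrestins then cap it. The gene grk1 (chromosome 3, positions 16464865 to 16480161) had 3.46 and 3.73 FPKM in LD, against 4.16 and 5.47 FPKM in SD. LD was below SD without overlap, and the log2 difference was -0.33 ± 0.15 (SE, limma adjusted p = 0.788). Its most abundant feature, with 2.17 and 2.53 FPKM in LD, against 2.59 and 4.13 FPKM in SD, overlaps tmco3 on the same strand, so part of these reads is uncertain. The cone kinase grk7 had 0.228 and 0.215 FPKM in LD, against 0.0825 and 0.0566 FPKM in SD, or about 17.3 and 16.2 fragments in LD, against 5.7 and 5.7 in SD. In the fit with no limit its log2 difference was 0.19 ± 0.06 (SE, limma adjusted p = 0.864). The other 2 kinases had at most 0.473 FPKM. LOC101168125 (arrestin-C, the cone arrestin) had 5.96 and 6.90 FPKM in LD, against 5.76 and 6.41 FPKM in SD, with overlap and a log2 difference of 0.07 ± 0.12 (SE).

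Calcium sensors completed the set. The guanylyl cyclase-activating protein guca1a had 1.75 and 1.85 FPKM in LD, against 1.24 and 2.22 FPKM in SD, so both extremes were in SD and the log2 difference was 0.06 ± 0.23 (SE). Of the 7 genes of this kind it was the only one tested, and among the others LOC101158587 had 1.17 and 0 FPKM in LD, against 0.0376 and 0.0767 FPKM in SD. The recoverin-like gene LOC101168054 was above 0 in SD 1 alone, at 0.0365 FPKM. Among the 19 tested members, groups did not overlap in 2 with LD higher and in 7 with LD lower, against 16.4% and 20.9% of all 17030.

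Genes of the pathway that the choice of terms left out were counted by list. The visual cycle, which regenerates retinal, had 32 genes, of which 19 were tested, 0 stood at an unadjusted limma p under 0.05 in either direction, and the median log2 difference was 0.07. Its most abundant genes were LOC101164605 (retinol dehydrogenase 12), with 60.0 and 58.4 FPKM in LD, against 51.8 and 56.9 FPKM in SD, and LOC101157001 (RPE-retinal G protein-coupled receptor), with 20.2 and 20.5 FPKM in LD, against 21.3 and 20.2 FPKM in SD. LOC101157001 encodes a retinal-binding member of the opsin family whose description lacks the term opsin. Its values were above those of every receptor in the set. Genes listed for photoreceptor phototransduction outside the terms numbered 29, with 13 tested, 0 at that level and a median of 0.02. Being on the list does not make a gene particular to photoreceptors. Of the 29, 3 were at 0 in all 4 libraries, and pdc (phosducin) had a mean of 0.0544 FPKM. The most abundant of the list were the cation exchangers slc24a2, with 87.0 and 80.0 FPKM in LD, against 82.3 and 81.5 FPKM in SD, and LOC101160040, with 35.0 and 32.7 FPKM in LD, against 33.2 and 30.4 FPKM in SD. The catalytic phosphodiesterase 6 subunits were the rod alpha gene LOC101163713, with a mean of 5.22 ± 0.0994 FPKM in LD, against 4.58 ± 0.594 FPKM in SD (SD, n = 2 each), the cone gene pde6c, with 0.197 and 0.170 FPKM in LD, against 0.0574 and 0.141 FPKM in SD, and the rod beta-like gene LOC101169549, with at most 0.0178 FPKM.

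The Gq, phospholipase C and TRPC channel genes, the arm that melanopsin uses, were listed together with the beta-arrestins arrb1 and arrb2. This list held 22 genes, of which 19 were tested. At an unadjusted limma p under 0.05, 0 were higher and 2 were lower in LD, and the median was -0.02. The background shares were 6.34% in either direction, 2.55% higher and 3.79% lower. The count of 2 of 19 is close to what the either-direction share gives, and above what the share lower in LD gives. Both encode TRPC cation channels. LOC101169223 (TRPC6) had 2.70 and 1.60 FPKM in LD, against 4.33 and 4.83 FPKM in SD, with a log2 difference of -0.84 (limma adjusted p = 0.782). LOC101169488 (TRPC5) had 24.3 and 31.3 FPKM in LD, against 36.0 and 36.3 FPKM in SD, with a log2 difference of -0.38 (limma adjusted p = 0.782). The other 4 TRPC genes tested had log2 differences of 0.06 (trpc1), 0.06 (trpc4), -0.15 (LOC101169118) and -0.31 (LOC101172353). The most abundant were the phospholipases C beta LOC101175365, with 171 and 174 FPKM in LD, against 165 and 150 FPKM in SD, and plcb4, with 86.8 and 87.9 FPKM in LD, against 100 and 88.1 FPKM in SD.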

How the data were processed

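RNA was measured in 4 libraries, LD 1, LD 2, SD 1 and SD 2. Stranded mRNA libraries were made per the labels' protocols, and the submitters' processing notes name StringTie 1.3.3b and HISAT2 2.0.5, with no role given. Per the file headers, the authors deposited 1 table of FPKM per feature and library. No source used here names the genome build, so coordinates are those of the deposited table. Gene names came from each feature's best hit, and all 58 had a match in RefSeq's genes for assembly ASM223467v1.

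FPKM of features that share a gene name were summed, and unnamed features were kept as units. Units with a mean of at least 1 FPKM (17030 of 62652) entered a limma 3.58.1 fit (R 4.3.3) of log2(FPKM + 1), with group as the only term, a mean-variance trend, and Benjamini-Hochberg adjustment at 0.05. Such differences understate the change of low genes. FPKM are not counts, and 7.1% to 7.45% of values above 0 lay below the estimated worth of 1 fragment, so counts were not rebuilt and fragment numbers are approximate. A value of 0 can be a failed estimate. The fit was also run on simulated data, with noise drawn from its own variances. It recovered 85.1%, 100% and 97.0% of 67 planted genes at each of 2-, 4- and 8-fold, with 16 false calls. Since its noise came from the fit itself, that run cannot show the power in the real libraries. Python 3.11.15 with pandas 2.3.3 read the table, and matplotlib 3.10.9 drew the plots.

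The members and lists were chosen with earlier results of these data known. Named were all members with a mean of at least 1 FPKM, all receptors above 0 and members at 0 throughout, and, in each pathway list, the 2 most abundant genes and any at an unadjusted p under 0.05. Other named genes, such as grk7 and the genes beside the rhodopsins, were chosen after their values were seen.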

Additional observations from a re-analysis of the deposited data

How the results depend on the processing

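No opsin or phototransduction gene passed the adjusted threshold under any of the 16 alternatives run, and the smallest adjusted p was 0.46. Of 279 recomputed log2 differences of single members, 13 changed sign, all of them on leaving out a replicate. Over the replicates left out in turn, the log2 difference ranged from -0.34 to 0.24 for LOC101163304, -0.20 to 0.32 for guca1a, -0.20 to 0.10 for LOC101163490, -0.15 to 0.07 for LOC101158106, -0.14 to 0.18 for LOC101168518, -0.07 to 0.10 for LOC101175500, -0.04 to 0.07 for pde6d, -0.03 to 0.05 for LOC101168199 and -0.03 to 0.16 for LOC101168125. With no change of sign it ranged from -0.71 to -0.08 for LOC101156055, -0.67 to -0.13 for tmtops2, -0.49 to -0.17 for grk1, -0.44 to -0.10 for LOC101165418, -0.35 to -0.13 for LOC101173391, -0.33 to -0.14 for opn3, -0.29 to -0.14 for LOC101158770, 0.04 to 0.36 for valop, 0.39 to 0.67 for LOC110014956 and 0.43 to 0.65 for tmtops1b. The number of all genes past the adjusted threshold (1) became 0 with no filter, with a mean of at least 0.1 FPKM, with limma without a trend and with the replicate block, 2 where a feature had to overlap its hit and 7 with features kept separate. Where this became 0, somatotropin had adjusted p of 0.646, 0.0669, 0.0713 and 0.180, in that order. The number ranged from 0 to 4 when each replicate was left out in turn, with 0 without SD 1 or without LD 2, 2 without LD 1 and 4 without SD 2. The number of members at an unadjusted p under 0.05 (2) became 5 with no filter, 4 with a mean of at least 0.1 FPKM, 0 with a mean of at least 5 FPKM, 1 with features kept separate, and 1 with a length-weighted mean of features, chosen after seeing the data. It was 1 or 2 without each replicate in turn. These were tmtops1b and grk1 without SD 1, LOC101156055 without SD 2, LOC110014956 without LD 1 and tmtops2 without LD 2, so neither tmtops1b nor LOC110014956 kept that level in every such fit. The cause was not tested.

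Whether the replicate numbers pair the samples is not stated in the labels. Deviations of same-numbered libraries had a correlation of 0.04 over 17030 genes, which with 4 libraries cannot settle it. With the replicate block 0 genes passed, and 1 member stood at an unadjusted p under 0.05.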
